A study of Arabidopsis thaliana with 6 samples.

Results

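In Arabidopsis thaliana seedlings, gene families that build or remodel the polysaccharides of the plant cell wall were compared between a VFB mutant and wild type. They were the xyloglucan endotransglucosylase/hydrolase genes (XTH), the TRICHOME BIREFRINGENCE-LIKE genes (TBL) and the cellulose synthase-like genes (CSL). A gene was included when an ATH1 probe set was annotated with that gene alone, under an upper-case symbol made of XTH or TBL and a number, or of CSL, a subfamily letter from A to G and a number. A gene with several such probe sets would have been read from the brightest, but each had 1. The rule gave 38 genes, 9 XTH, 22 TBL and 7 CSL, of 13356 genes that had a single-gene probe set. RefSeq (assembly TAIR10.1) lists 30 XTH, 41 TBL and 26 CSL symbols of these forms, so the 38 genes sample each family in part.

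RNA came from light-grown seedlings on 6 Affymetrix ATH1 arrays, 3 for Col-0 wild type and 3 for the VFB triple mutant. VFB genes encode F-box proteins, relatives of the receptors that bind auxin. Which VFB genes were mutated is not given in the labels, and 0 single-gene probe sets carried a VFB symbol or synonym. Other probe sets were not searched, so the mutation was not checked in these values. Wild type seedlings were 10 days old in every label. Mutant seedlings were 10 days old in the descriptions but 5 days old in the source names and extract protocols, so genotype cannot be told apart from age if the latter hold. Mutant replicate 3 carries an extract protocol that names a No-0 wild type, and it was kept with the mutant by its title. The labels do not say whether replicates were grown separately, so p-values cover only the spread among these arrays.

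Xyloglucan, mannan and xylan are the hemicelluloses that lie among the cellulose fibrils of the wall. Enzymes of the CSLC subfamily make the glucan backbone of xyloglucan in the Golgi, those of the CSLA subfamily make mannans and glucomannans, and CSLD proteins act in tip-growing cells such as root hairs. XTH enzymes work in the wall itself, where they cut xyloglucan chains and rejoin them to other chains or hydrolyse them as the wall expands. TBL proteins belong to a family of O-acetyltransferases that decorate xylan, mannan, xyloglucan or pectin with acetyl groups, and the substrate of many members is not established.

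The values were MAS5 signals, probe set intensities on a linear scale, and array medians ran from 184.6 to 204.2. Correlations of log2 values between arrays ran from 0.9779 to 0.9852 within groups and from 0.9405 to 0.9563 between groups, across probe sets, which are not independent replicates. Leaf genes marked the tissue as green seedling, with LHCB4.1 at 18167.3 or more on every array, and the root gene PYK10 was at 12387.1 or more. The root hair peroxidase gene AT4G26010 was lower in the mutant by a log2 change of -1.07 ± 0.253 (limma, adjusted p = 0.0112), and the leaf gene PRK was higher by 0.43 ± 0.109 (limma, adjusted p = 0.0166). The changes of PYK10, LHCB4.1 and the leaf gene RCA were 0.20 ± 0.118, 0.19 ± 0.107 and 0.28 ± 0.104. Their adjusted p-values were not under 0.05 (limma, 0.274, 0.251 and 0.0802). Summed signals of the 3 leaf markers were 49973.5 to 54653.7 in wild type and 59809.5 to 65995.9 in the mutant, and those of the 2 root markers were 12803.0 to 13629.8 and 12443.9 to 17161.2. The root sums were almost all PYK10, since AT4G26010 stayed at 191.0 or below on every array. Actin control probe sets had a 3' to 5' ratio of 2.80 ± 0.231 for wild type and 3.40 ± 0.188 for the mutant (SD, n = 3 each, exact permutation p = 0.1, the smallest that 3 against 3 arrays allow), and the older actin set, at 19.0 ± 6.52 and 25.8 ± 3.25, gave the same exact p. The GAPDH ratio was 1.13 in both groups (exact permutation p = 1), and the older GAPDH set and the 2 ubiquitin sets had exact permutation p-values of 0.6, 0.2 and 0.3. Of 11 seed reserve and 6 xylem wall markers, 1 each had a single-gene probe set (OLEO3 and IRX15), and both were too dim to test. The part of age, organ share and RNA quality in the results below was not tested. In whole seedlings, fewer cells of a type and less RNA per cell cannot be told apart.

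TBL genes moved in both directions, and the XTH and CSL genes that were bright enough to test and passed the threshold were lower in the mutant. Testing was limited to probe sets with a mean log2(signal + 16) above the 40th percentile, a signal of about 108.6, and one passed when its limma p, adjusted over all 13647 tested probe sets, was under 0.05. Of the 38 genes 22 were tested, and these 22 exceeded the cutoff in both groups. In the XTH family 4 of 9 genes were tested, and 0 rose and 1 fell. In the CSL family 5 of 7 were tested, and 0 rose and 2 fell. With an offset of 64, or with no filter on low values, CSLA01 was tested too, and the CSL counts were then 1 higher and 2 lower. In the TBL family 13 of 22 were tested, and 4 rose and 4 fell. Of all tested probe sets 18.6% passed, 8.17% higher and 10.4% lower, and of those with a single annotated gene 16.6% passed. The share of calls that were higher was 43.9%, and 61.8% when every array was centred on its median. Centring left the XTH and CSL counts as they were and gave 4 higher and 3 lower among TBL genes. The median log2 change, mutant minus wild type, was -0.18 for XTH, -0.16 for TBL and -0.42 for CSL genes, against -0.0451 over all tested probe sets. The median size of the change without its sign was 0.36, 0.56 and 0.42 for the 3 families and 0.20 over all tested probe sets. The families were not tested against each other.

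**Figure D1:**
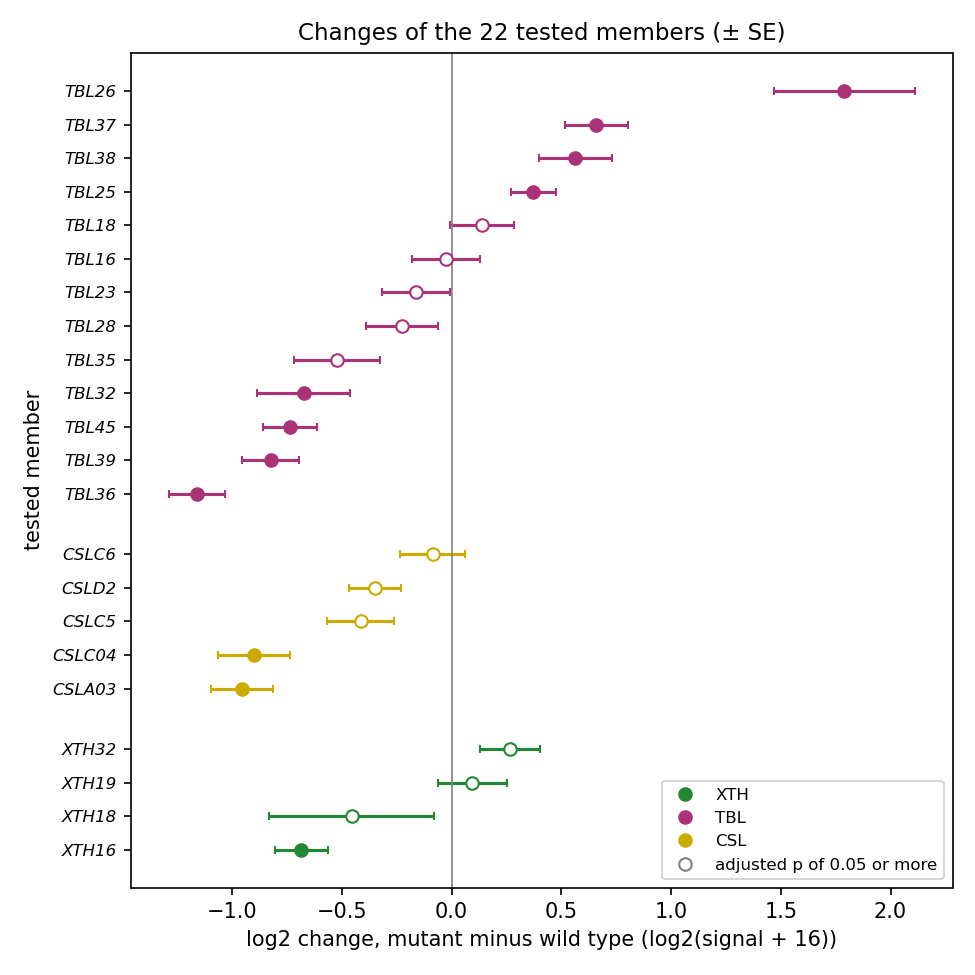
Log2 change (mutant minus wild type, on log2(signal + 16)) of each tested XTH, CSL and TBL gene, with its standard error from limma as a bar; filled points passed an adjusted p of 0.05. TBL points reach from -1.16 to 1.79, whereas all 5 CSL points lie below 0 (CSLC6 at 0.0039 after median centring) and 1 of 4 XTH points is filled.

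XTH16 was the XTH gene that fell. Its signals (locus AT3G23730, probe set 257203_at) were 696.2, 617.7 and 684.8 in wild type and 378.3, 436.7 and 410.2 in the mutant. The groups did not overlap, and the log2 change was -0.69 ± 0.121 (limma, adjusted p = 0.0020), a 1.61-fold lower level. XTH16 kept its call under all 15 alternatives, with log2 changes from -0.74 to -0.59.

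XTH18 and XTH19 lie next to each other at AT4G30280 and AT4G30290 and are closely related genes expressed in roots, so their probes could share transcripts. XTH18 gave 402.8, 217.8 and 94.3 in wild type and 106.4, 141.7 and 200.7 in the mutant. Wild type replicates of XTH18 thus spread more widely than the mutant ones and enclosed them, and the log2 change was -0.46 ± 0.376 (limma, adjusted p = 0.448). Without wild type replicate 1 the change of XTH18 was 0.0048, and without wild type replicate 3 it was -0.96 with an adjusted p of 0.0363 in limma. XTH32, whose closest relative XTH31 has hydrolase activity, gave 400.6, 468.2 and 504.3 in wild type and 582.1, 483.1 and 597.1 in the mutant. These groups overlapped, and the change of 0.27 ± 0.137 did not pass (limma, adjusted p = 0.204).

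Among the cellulose synthase-like genes, CSLA03 and CSLC04 fell. CSLA03 (AT1G23480, 265175_at), a member of the mannan synthase subfamily, gave 816.8, 624.2 and 637.9 in wild type and 317.8, 338.2 and 388.8 in the mutant. Every mutant array lay below every wild type array, and the log2 change was -0.95 ± 0.142 (limma, adjusted p = 6.2e-04), a 1.94-fold lower level. CSLC04 (AT3G28180, 257071_at), which encodes a xyloglucan glucan synthase, gave 1860.4, 1481.1 and 1580.6 in wild type and 774.9, 719.4 and 1166.2 in the mutant. Mutant replicate 3 was the highest of its group but stayed below all wild type arrays. The change of CSLC04 was -0.90 ± 0.165 (limma, adjusted p = 0.00244), and -1.11 without mutant replicate 3. Both genes kept their calls under all 15 alternatives.

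The remaining tested CSL genes had changes from -0.42 to -0.09 and did not pass. CSLC5, another xyloglucan glucan synthase gene, gave 381.9, 508.9 and 452.6 in wild type and 386.0, 320.2 and 289.2 in the mutant. Mutant replicate 1 lay inside the wild type range, and the change was -0.42 ± 0.153 (limma, adjusted p = 0.0799). CSLD2, which acts in root hair growth, gave 635.4, 633.8 and 604.7 in wild type and 461.6, 465.2 and 535.9 in the mutant. Its groups did not overlap, although the change of -0.35 ± 0.119 did not pass (limma, adjusted p = 0.0587). CSLC5 passed without mutant replicate 1 (limma, adjusted p = 0.0463), and CSLD2 passed without mutant replicate 3 (limma, adjusted p = 0.0417).

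Of the TBL genes that fell, TBL36 changed the most. TBL36 (AT3G54260, 251886_at) gave 1671.9, 2367.4 and 2008.9 in wild type and 867.5, 934.1 and 852.5 in the mutant. Its mutant values were close together and well below the lowest wild type value. The log2 change was -1.16 ± 0.129 (limma, adjusted p = 8.98e-05), a 2.24-fold lower level. TBL39 (AT2G42570, 263496_at) gave 498.9, 437.6 and 495.7 in wild type and 259.0, 266.7 and 260.2 in the mutant. The mutant SD of TBL39 was 4.14 around a mean of 262, and the change was -0.83 ± 0.128 (limma, adjusted p = 8.88e-04). TBL45 (AT2G30010, 266805_at) gave 1980.5, 1828.7 and 1476.6 in wild type and 974.3, 1089.9 and 1070.0 in the mutant. TBL45 changed by -0.74 ± 0.124 (limma, adjusted p = 0.0014), with no overlap. TBL36, TBL39 and TBL45 kept their calls under all 15 alternatives.

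TBL32, one of the genes linked to xylan acetylation, fell with a narrower margin. Its probe set (AT3G11030, 251349_s_at) is of a type whose probes can match several transcripts, so the value may not be of TBL32 alone. It gave 279.1, 217.9 and 309.6 in wild type and 211.0, 170.3 and 114.9 in the mutant. The lowest wild type and the highest mutant value were nearly equal, and the change was -0.67 ± 0.211 (limma, adjusted p = 0.0427). The call was lost under 9 of 14 alternatives, among them median centring (limma, adjusted p = 0.0693) and the fits that left out either of wild type replicates 1 and 3 or of mutant replicates 2 and 3, where the adjusted p ran from 0.081 to 0.143 in limma.

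TBL26 had the largest rise among the tested members. TBL26 (AT4G01080, 255604_at), linked to mannan acetylation, gave 95.5, 130.0 and 112.8 in wild type and 850.4, 257.2 and 350.3 in the mutant. The 3 mutant arrays were all above wild type but their highest value, in replicate 1, was 3.31 times their lowest. The log2 change was 1.79 ± 0.322 (limma, adjusted p = 0.00222), a 3.46-fold higher level on the log2(signal + 16) scale, and 1.31 without mutant replicate 1. Its call held under all 14 alternatives in which it was tested.

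TBL37 (AT2G34070, 256725_at) gave 594.1, 541.9 and 446.7 in wild type and 759.8, 984.5 and 783.3 in the mutant. Every mutant array was above wild type, and TBL37 rose by 0.66 ± 0.143 (limma, adjusted p = 0.00681), a call kept under all 15 alternatives. TBL38 (AT1G29050, 260840_at), studied for its part in setting the acetyl content of seed coat pectin, gave 448.8, 463.8 and 417.4 in wild type and 535.7, 611.2 and 885.8 in the mutant. It rose by 0.56 ± 0.166 (limma, adjusted p = 0.0325), and mutant replicate 3 was well above the other mutant arrays. TBL25 (AT1G01430, 261049_at), also linked to mannan acetylation, gave 1394.8, 1429.5 and 1392.1 in wild type and 1719.5, 1757.3 and 2009.4 in the mutant. The wild type arrays agreed closely, and the rise was small, 0.37 ± 0.104 (limma, adjusted p = 0.0251). The call of TBL38 was lost without any 1 array except mutant replicate 1 (limma, adjusted p from 0.0572 to 0.1), and its change without mutant replicate 3 was 0.36. The call of TBL25 was likewise lost without any 1 array except mutant replicate 1 (limma, adjusted p from 0.0559 to 0.0757).

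**Figure D2:**
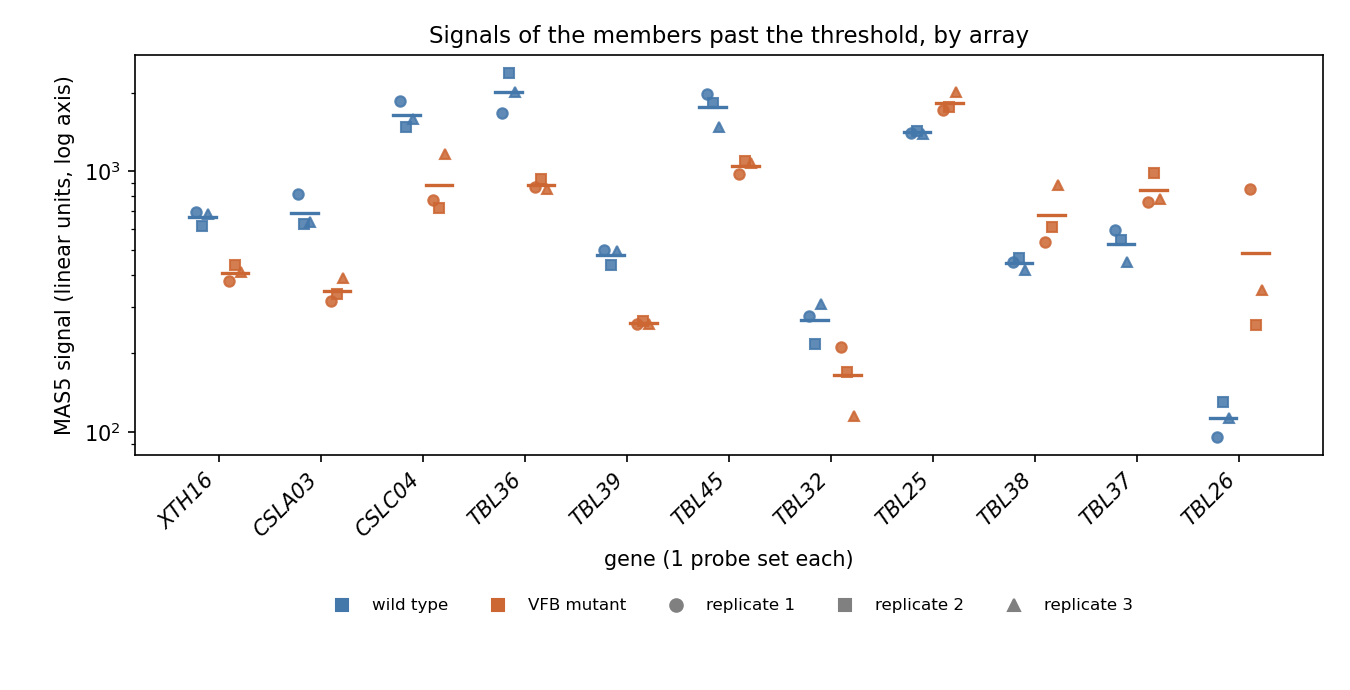
MAS5 signal (log axis) of the 11 members past the threshold on each of the 6 arrays; blue is wild type, orange is the mutant, the marker shape gives the replicate and the horizontal bar is the group mean (n = 3). The groups do not overlap for any of the 11 genes, against 36.1% of all tested probe sets. The 11 were picked by a test on these same arrays, so this is no further support. TBL26 and TBL38 show the widest relative spread between mutant arrays among the 4 genes that rose.

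The remaining 5 tested TBL genes had changes from -0.52 to 0.14. TBL35, linked to xylan acetylation, gave 203.0, 164.2 and 226.7 in wild type and 160.2, 104.9 and 136.0 in the mutant. Its groups did not overlap, by a narrow margin, and the change of -0.52 ± 0.195 did not pass (limma, adjusted p = 0.0849). TBL28, also linked to xylan acetylation, gave 181.0, 191.3 and 177.6 in wild type and 136.0, 155.5 and 173.1 in the mutant. Highest mutant and lowest wild type values of TBL28 nearly met, and the change was -0.23 ± 0.165 (limma, adjusted p = 0.38). TBL16, TBL18 and TBL23 completed the tested TBL genes, and their groups overlapped.

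Over all tested members the groups did not overlap in 14 of 22 genes, 4 with the mutant higher and 10 with the mutant lower, against 36.1% of all tested probe sets, 15.0% with the mutant higher and 21.2% with it lower. In the TBL family this held for 10 of 13 genes, in the CSL family for 3 of 5 and in the XTH family for 1 of 4.

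A further 16 genes were too dim over all 6 arrays to be tested, 5 XTH, 9 TBL and 2 CSL genes. Of these, 2 exceeded the cutoff in 1 group, CSLA01 in the mutant and TBL34 in wild type. A fit with no filter on low values gave the changes of the 16 genes. There 9.32% of all 22746 probe sets passed, and of these 16 genes TBL19 and CSLA01 did. That share includes the bright probe sets, and the share among dim ones alone was not counted. The deposited table gave no detection calls, so whether such signals were above background is unknown. The groups did not overlap in 6 of the 16, against 15.7% of all untested probe sets. These 6 were XTH20, XTH33, TBL19, TBL30, TBL34 and CSLA01, and they are named because of these values.

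CSLA01, a mannan synthase subfamily gene, gave 63.6, 6.0 and 17.0 in wild type and 941.8, 72.1 and 260.7 in the mutant. Mutant replicate 1 was far above the other mutant arrays, and mutant replicate 2 barely exceeded wild type replicate 1. The log2 change with no filter was 2.89 ± 0.740 (limma, adjusted p = 0.0363). The call of CSLA01 was lost when either of wild type replicates 2 and 3 or of mutant replicates 1 and 3 was left out (limma, adjusted p from 0.0954 to 0.141) and, with no filter, at an offset of 64 (limma, adjusted p = 0.065). With the filter at the 40th percentile, CSLA01 was bright enough to be tested at that offset and passed, with a log2 change of 1.98 ± 0.510 (limma, adjusted p = 0.0170). In the fit with no filter that gave 2.89, leaving out mutant replicate 1 lowered the change of CSLA01 to 2.01. CSLA01 and TBL26 shared the order of the mutant arrays, with replicate 1 highest and replicate 2 lowest. This was picked out after the values were seen, and how many other probe sets share that order was not counted.

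TBL19 gave 65.9, 45.1 and 54.1 in wild type and 24.4, 9.9 and 6.7 in the mutant. With no filter the log2 change was -1.29 ± 0.311 (limma, adjusted p = 0.0277). The groups were apart, but the call was lost without any 1 array except mutant replicate 1 (limma, adjusted p from 0.0665 to 0.0925). TBL21, the neighbouring gene at AT5G15890, stayed at 38.6 or below on all arrays, and its groups overlapped. XTH20, a close relative of XTH18 and XTH19, gave 112.6, 85.8 and 109.4 in wild type and 40.2, 80.3 and 56.5 in the mutant. XTH33, which encodes a protein anchored in the plasma membrane, gave 95.2, 124.9 and 86.2 in wild type and 50.2, 84.6 and 41.4 in the mutant. For both genes mutant replicate 2 came close to the wild type range, and neither passed with no filter (XTH20 -0.69 ± 0.268, limma, adjusted p = 0.153; XTH33 -0.69 ± 0.280, limma, adjusted p = 0.173). The root genes XTH21 and XTH26 and the stress-linked XTH29 had signals of 53.6 or below on all arrays, with overlapping groups.

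The members were also grouped by polysaccharide, after their values were seen. TBL28, TBL30, TBL32, TBL34 and TBL35 are the genes with a known link to xylan acetylation among the 38, and the mutant mean was below the wild type mean in 5 of 5, where this held for 53.4% of all gene probe sets. Their changes were below 0 also after quantile normalization and median centring. The groups did not overlap in any of these 5, where 16.1% of all gene probe sets had every mutant array below wild type, but of the 3 that were tested 1 passed, TBL32, whose call was lost under 9 of 14 alternatives. TBL34 gave 127.3, 118.2 and 123.4 in wild type and 81.5, 58.8 and 52.0 in the mutant, a change of -0.81 ± 0.231 with no filter (limma, adjusted p = 0.0548). TBL30, the neighbour of TBL28 at AT2G40160, gave 108.7, 91.3 and 109.8 in wild type and 79.5, 61.8 and 70.6 in the mutant. The change of TBL30 was -0.46 ± 0.223 (limma with no filter, adjusted p = 0.253).

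Mannan genes went in both directions. Of 3 tested acetylation genes, TBL25 and TBL26 rose, where 8.17% of all tested probe sets were called higher, and TBL23 had overlapping groups. The call of TBL25 held under 8 of 15 alternatives. The backbone gene CSLA03 fell, where 10.4% of all tested probe sets were called lower, while the dim CSLA01 was higher in the mutant arrays. Of the 4 xyloglucan backbone genes CSLC04, CSLC5, CSLC6 and CSLC12, 3 were tested and 1 fell, against 10.4% of all tested probe sets. The mutant mean was below that of wild type in 4 of 4, a direction that 53.4% of all gene probe sets had, and the log2 change of CSLC6 was 0.0039 after median centring. CSLC6 and CSLC12 had overlapping groups.

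**Figure D3:**
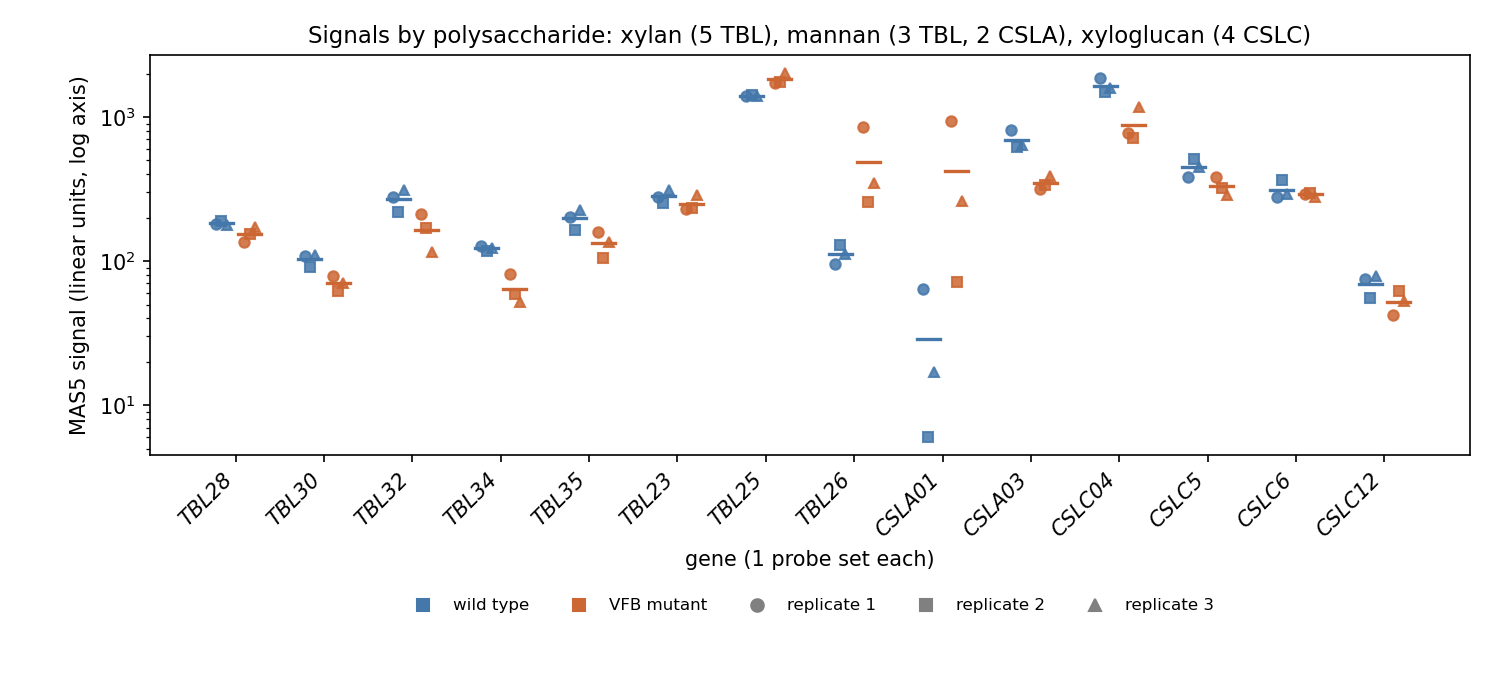
MAS5 signal (log axis) of 14 members by polysaccharide on each array, dim genes included; blue is wild type, orange is the mutant, the marker shape gives the replicate and the horizontal bar is the group mean (n = 3). All 5 xylan genes, TBL28 to TBL35, have mutant arrays below wild type, as do 16.1% of all gene probe sets, and in TBL28 and TBL32 the groups nearly meet. The mannan genes from TBL23 to CSLA03 go both ways, and CSLA01 reaches 941.8 on mutant replicate 1. The genes were grouped after their values were seen.

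Seen array by array, the median of the tested CSL genes was the most even of the 3 family medians over the mutant arrays. The dim CSLA01 is not in that median, and single genes such as CSLC04 and CSLC5 differed more between mutant arrays. The median deviation of the 5 tested CSL genes from their wild type means was -0.42, -0.45 and -0.48 on mutant replicates 1, 2 and 3. It was -0.05 to 0.02 on wild type arrays. For the 13 TBL genes it was -0.26, -0.22 and 0.03, and for the 4 XTH genes -0.44, -0.27 and 0.17. Mutant replicate 3 thus lay apart from the other mutant arrays in the XTH and TBL medians, while all tested probe sets had -0.05 there and -0.03 and -0.04 on the other mutant arrays. The sign of the XTH and TBL medians over all arrays depended on the filter, and with one at the 60th percentile they were 0.0945 and 0.14. Without wild type replicate 1 the XTH median was 0.0699.

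**Figure D4:**
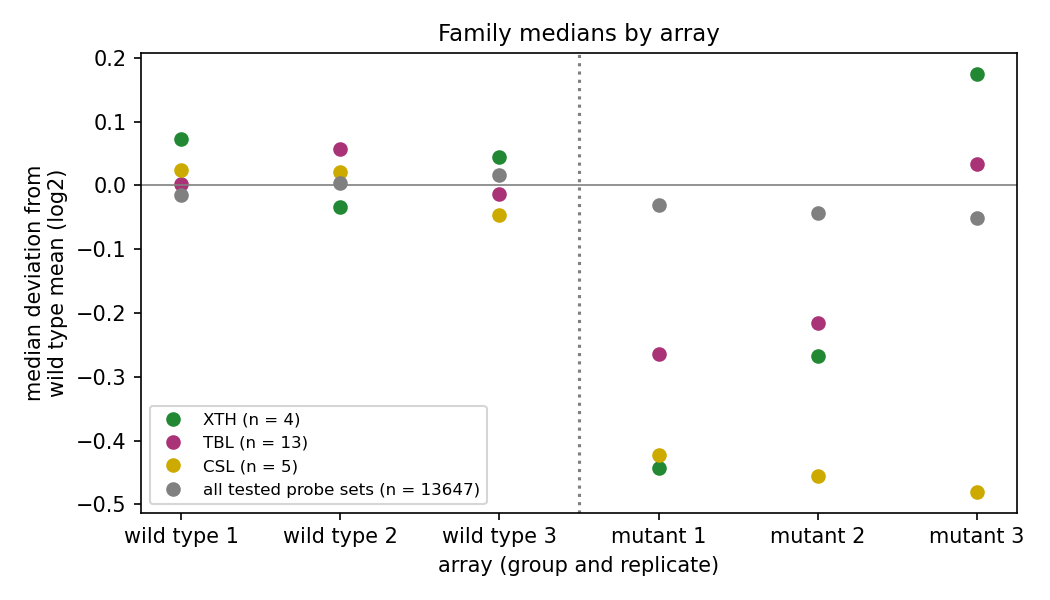
Median over the tested genes of each family of the deviation of log2(signal + 16) from that gene's wild type mean, for each array; grey points are all 13647 tested probe sets. CSL points lie at -0.48 to -0.42 on the 3 mutant arrays, whereas XTH and TBL points are below 0 on mutant replicates 1 and 2 and above 0 on replicate 3.

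**Figure D5:**
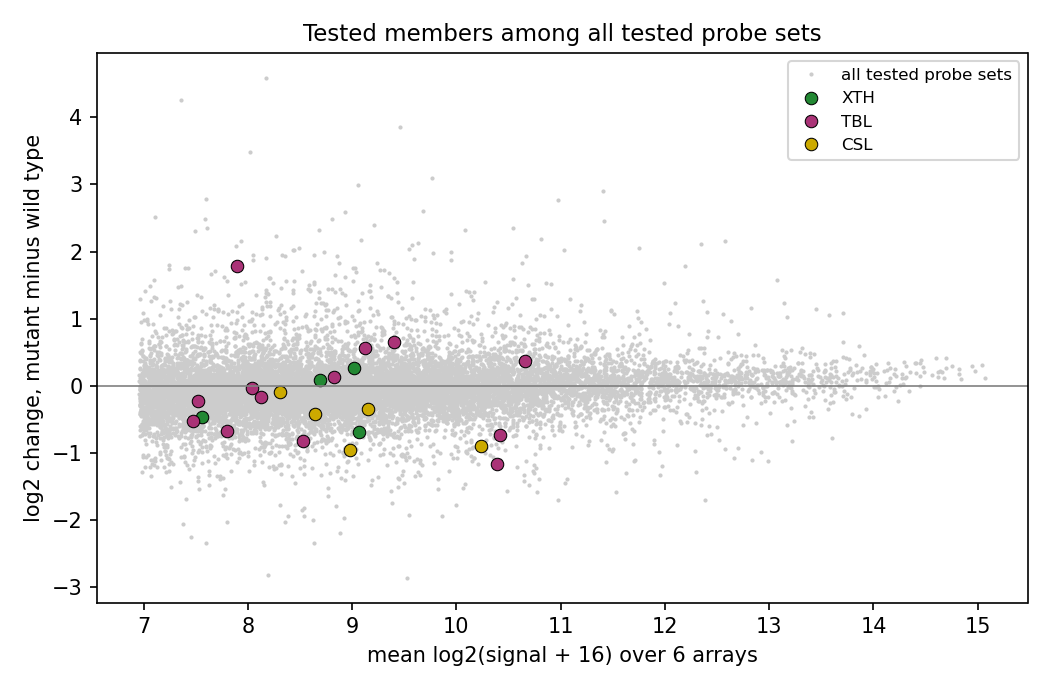
Log2 change against mean log2(signal + 16) over the 6 arrays for all 13647 tested probe sets (grey) and the 22 tested members (coloured by family). Among the members TBL26 is the highest at 1.79 and TBL36 the lowest at -1.16. The range of changes among probe sets of like brightness was not computed.

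Other genes of wall polysaccharides were taken from a list of symbols and of members of the 3 families filed under other names. It matched 8 genes, of which 6 were tested, and 0 rose and 2 fell, where 8.17% of all tested probe sets were called higher and 10.4% lower. COB, which encodes a membrane-anchored protein that orients cellulose deposition, gave 2442.7, 2587.3 and 2556.1 in wild type and 2040.5, 1844.0 and 1824.8 in the mutant. The groups were apart, and the change was -0.41 ± 0.0985 (limma, adjusted p = 0.0124). PME61, a pectin methylesterase gene, gave 204.7, 205.3 and 245.8 in wild type and 141.0, 145.4 and 74.4 in the mutant. PME61 changed by -0.83 ± 0.226 (limma, adjusted p = 0.0229). Without wild type replicate 2 neither call held (limma, adjusted p = 0.0557 for COB and 0.0594 for PME61). COB also lost its call without mutant replicate 2 (0.0514), and PME61 without wild type replicate 3 (0.0784) or mutant replicate 3 (0.0565). EXGT-A3, which is XTH27, ATCSLC08, the fifth xyloglucan glucan synthase gene, AT2G31110, which is TBL40, and the galacturonosyltransferase-family gene GAUT15 were tested and did not pass. IRX15, a gene of xylan synthesis, and BGAL16 were too dim to test.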

How the data were processed

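The deposited table holds linear-scale intensities, 1 per probe set and array, which the authors made with MAS5 per the submitters' processing notes. The MAS5 version and settings were not given in the sources used here. Trimmed means were 500.0 on every array, with 2% removed at each end. About 80 mg of tissue and 6 µg of RNA were used per sample, per the labels' protocols. Of 22810 probe sets 64 controls were left out. Values were used as log2(value + 16), so fold changes of dim probe sets are understated, and 3 arrays per group limit the precision. Groups follow the titles and were tested against each other in limma 3.58.1 under R 4.3.3 (eBayes with trend, Benjamini-Hochberg over all tested probe sets), a script tested on simulated data. Gene names came from the platform annotation, and all 38 members matched RefSeq by Entrez number. Named genes are all called members, the 2 largest uncalled changes per family and at most 10 called wall genes, with dim genes and polysaccharide groups added after their values were seen. The members and lists were chosen with earlier results of these data known. Same-numbered replicates did not deviate together (correlations -0.196, 0.0157 and -0.167), so samples were not paired. The alternatives were median centring, quantile normalization, an offset of 1 or 64, a filter at the 60th percentile or none, eBayes without trend or robust, a replicate block and leaving out each array. Figures were drawn with matplotlib 3.10.9.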

Additional observations from a re-analysis of the deposited data

How the results depend on the processing

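Of the 11 called members, 8 kept direction and call under every alternative in which they were tested, and TBL25, TBL32 and TBL38 lost the call under some. With the replicate block, and with eBayes without trend, 5 TBL genes were called in place of 8. Calls over all 13647 tested probe sets fell too, from 2541 to 1988 with the block and to 2287 without trend. The block left 1 XTH and 2 CSL genes called. Leaving out wild type replicate 1 or 3, or else mutant replicate 2 or 3, also gave 5 TBL calls. Over all arrays, leaving out 1 gave 5 to 8 TBL, 1 to 2 XTH and 2 to 3 CSL calls, 0 to 3 calls in the wall list and 1694 to 2265 calls over all probe sets, against 2541. The wall list had 1 call with no filter and 1 with the 60th percentile filter. Family medians moved. For XTH, TBL and CSL they were -0.11, -0.0941 and -0.36 after quantile normalization, -0.0904, -0.0719 and -0.325 after median centring, -0.46, -0.11 and -0.35 with no filter, and 0.0945, 0.14 and -0.66 with the 60th percentile filter. With offset 64 the CSL median was -0.35, since CSLA01 was then tested as a sixth gene and called higher, which made 3 CSL calls, 1 higher and 2 lower. Without 1 array they ran from -0.37 to 0.0699 for XTH, -0.26 to -0.0897 for TBL and -0.52 to -0.34 for CSL. The change of XTH18 ran from -0.96 to 0.0048 without 1 array, the last without wild type replicate 1. Another filter changes which genes are tested, and no filter also gave 3 CSL calls, 1 higher and 2 lower; the cause of the other shifts was not tested. A choice among probe sets could be varied only in the wall list, since each member had 1, and it left 2 calls. For dim genes, the fits with no filter and 1 array left out were chosen after seeing the data.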
